A study of Arabidopsis thaliana with 8 samples.

Results

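The 10 genes of the NAC family that are known for roles in stress responses and leaf senescence were followed in hypocotyls of Arabidopsis thaliana. They are ANAC019 (AT1G52890), ANAC055 (AT3G15500), RD26 (AT4G27410), ATAF1 (AT1G01720), ATAF2 (AT5G08790), ANAC032 (AT1G77450), ANAC102 (AT5G63790), NAP (AT1G69490), ORE1 (AT5G39610) and ORS1 (AT3G29035). They were taken by locus from a count table of 37573 genes, and all 10 were among the 21289 genes with enough counts to be tested. The plants carried the SMXL7pro:SMXL7d53-GR transgene in the Col-0 accession, in the DEX and the mock group alike. In this transgene, the SMXL7 promoter drives a form of SMXL7 that resists strigolactone-induced breakdown, fused to the glucocorticoid receptor (GR), which holds the protein outside the nucleus until dexamethasone is given. Plants were grown for 3 weeks in short days and 1 week in long days and watered at 4 weeks of age with 15 µM dexamethasone (DEX, 4 libraries) or with DMSO as mock (4 libraries). Hypocotyls were collected 5 h later for RNA sequencing. No library came from plants without the transgene, so effects of dexamethasone itself and of the activated SMXL7d53-GR protein cannot be told apart. The labels do not say whether the 4 libraries of a treatment came from separate plants, and p-values therefore measure the spread between these libraries, which may be technical.

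NAC proteins are transcription factors found only in plants, named after NAM, ATAF and CUC, with a conserved DNA-binding domain at the N terminus and a variable regulatory region at the C terminus. ANAC019, ANAC055 and RD26 form one subgroup, described in drought, salt, abscisic acid (ABA) and jasmonate responses. ATAF1, ATAF2, ANAC032 and ANAC102 form the ATAF subgroup, described in responses to wounding, pathogens, drought and low oxygen. NAP, ORE1 and ORS1 are best known as promoters of leaf senescence, in which they act downstream of ethylene and ABA.

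The libraries held between 47976811 and 63996960 counted reads in DEX and between 49220724 and 85953231 in mock. The first principal component took 67.5% of the variance and separated the treatments. SMXL7, whose counts join those of the gene and of the transgene, had a mean normalised count of 24703 ± 257 in DEX and 33487 ± 1913 in mock (SD, n = 4 each), a log2 fold change of -0.44. All 11 markers of hypocotyl vascular tissue and periderm were detected, with a summed level of 774 to 836 CPM (counts scaled to a common library size) in DEX and 709 to 768 CPM in mock. The 5 root markers summed to 0.375 to 1.15 CPM in DEX and 0.640 to 1.14 CPM in mock. Markers of leaf and shoot were present as well, and their levels differed between treatments as given beside the results they move with.

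ORE1 is a known target of the microRNA miR164, and ORS1 is its close relative. The sequences are shown because both genes were lower in every DEX library, although ORS1 was not called, while their matches to miR164 differ. They were read from the RefSeq annotation and genome of TAIR10.1. In the microRNAs, capitals mark the seed, bases 2 to 8. In the sites, which for ORS1 means the best matching window, capitals mark bases that pair with miR164a.
ath-miR164a: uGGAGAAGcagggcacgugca
ath-miR164b-5p: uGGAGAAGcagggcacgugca
ath-miR164c-5p: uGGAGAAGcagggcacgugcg
ORE1 site: cuCACGUGaCCUGCUUCUCCg
ORS1 site: cuCACGUuaCCUaCUUCUCCg
NAC1 site: aGCACGUaCCCUGCUUCUCCA

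The miR164a sequence lies at chr2:19520770-19520790 on the plus strand. The site in ORE1 lies in the coding sequence at chr5:15858797-15858817 on the minus strand and leaves 4 of 21 bases without a Watson-Crick pair. The best window in ORS1 lies in the coding sequence at chr3:11034693-11034713 on the plus strand and leaves 6 of 21 bases without one. With 1 point for a mismatch and 0.5 for a G-U pair, the best window scored 3.5 in ORE1 and 5.5 in ORS1, where a lower score is a better match. The best windows in the other 8 members scored 6.5 to 8.0. At a score of 3.5 or less, 16 of 27562 protein-coding genes held a site, 6 of them NAC genes, and among the members only ORE1. The MIR164 loci are not analysed here.

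Of the 10 members, 5 were called induced and 2 suppressed by DEX, and 3 were not called. A call needed an adjusted p under 0.01 (quasi-likelihood test of edgeR, Benjamini-Hochberg method over all genes tested), a change of more than 1.5-fold and a mean normalised count above 50. Over all genes tested, 4.64% were called induced and 1.81% suppressed. The 5 induced members were the whole ATAF subgroup and ANAC019, and the suppressed members were NAP and ORE1. All 5 induced members were higher in every DEX library than in every mock library, which held for 16.2% of all genes tested. A further 3 members, NAP, ORE1 and ORS1, were lower in every DEX library than in every mock library, which held for 15.1% of all genes tested. Only RD26 and ANAC055 overlapped between the treatments. In whole hypocotyls, fewer cells of a type and less RNA of a gene per cell cannot be told apart.

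**Figure D1:**
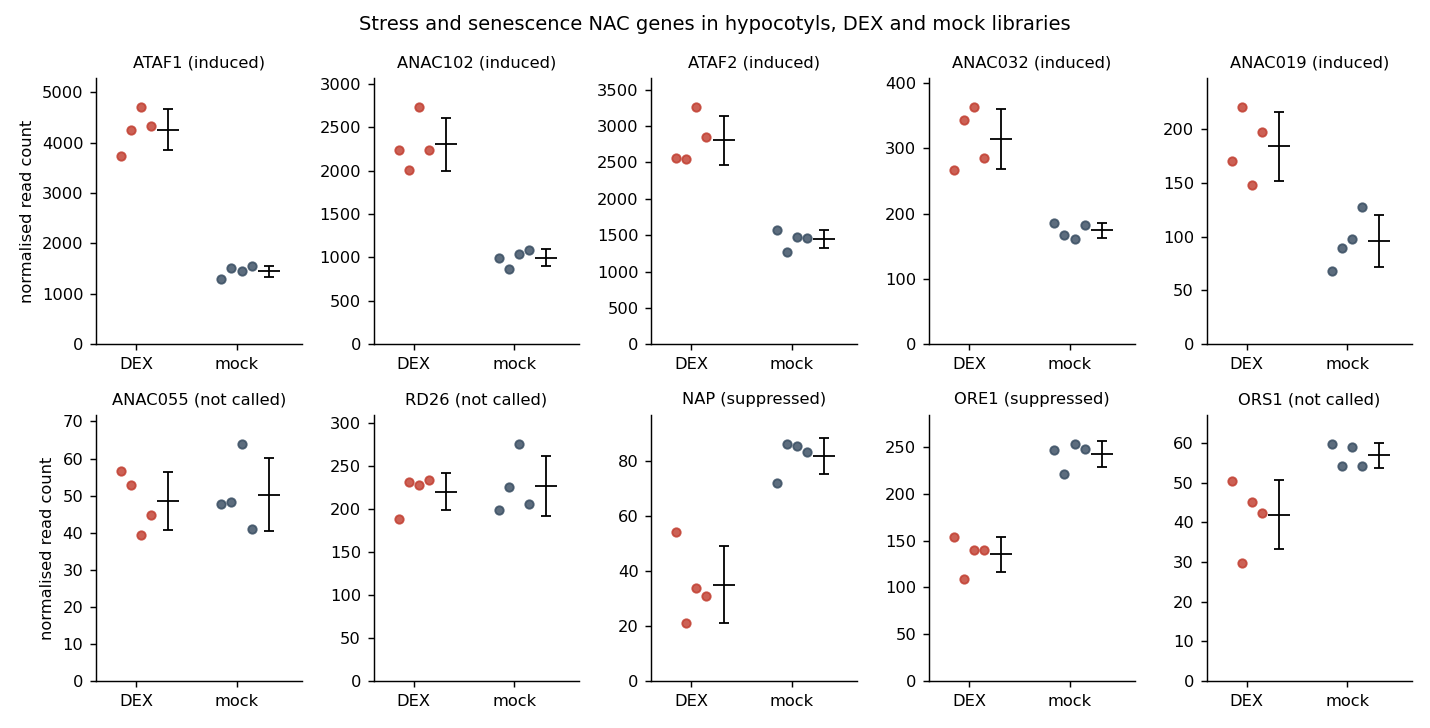
Normalised read counts of the 10 NAC genes, with 1 point per library and the mean and SD (n = 4) beside the points, DEX at left and mock at right of each panel, each panel on its own linear axis from 0. ATAF1 sits between 3730 and 4710 in DEX and between 1298 and 1545 in mock, whereas NAP sits between 21.2 and 54.2 in DEX and between 72.0 and 86.2 in mock.

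The ATAF subgroup rose as a whole. ATAF1 (chr1:267993-269819, plus strand, 3 exons in TAIR10.1) encodes an ABA- and drought-responsive activator that is reported to bind the promoters of NCED3 and ORE1. Its normalised counts, that is, counts scaled to the mean library size with TMM factors, were 3730, 4254, 4710 and 4335 in DEX libraries 1 to 4, against 1298, 1507, 1454 and 1545 in mock libraries 1 to 4. Every DEX library was more than 2-fold above the highest mock library. On the log2 scale the change was 1.56 ± 0.07 (SE), a fold of 2.94, with an adjusted p of 8.1e-08 in edgeR's quasi-likelihood test, and ATAF1 ranked 263 of the 987 induced genes by size of change. In the RefSeq annotation, 22.5% of the exon bases of ATAF1 are shared with AT1G01725 or with the antisense gene AT1G04043, and the authors' counting leaves out reads that fall on more than 1 gene. AT1G01725 itself had a log2 fold change of 0.12 (adjusted p = 0.361 in edgeR's test).

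ANAC102 (chr5:25526509-25528281, minus strand) is described in the germination of seeds under low oxygen. Its normalised counts were 2235, 2014, 2735 and 2235 in DEX libraries, against 990, 865, 1044 and 1087 in mock libraries. The groups were well apart, with DEX library 3 the highest. ANAC102 rose by 1.21 ± 0.10 on the log2 scale (SE), with an adjusted p of 9.3e-06 in edgeR's test.

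ATAF2 (chr5:2858849-2860558, minus strand) is induced by wounding, represses defence genes and is reported to repress the brassinosteroid-inactivating genes BAS1 and SOB7. It had normalised counts of 2562, 2546, 3264 and 2843 in DEX libraries and of 1564, 1274, 1472 and 1463 in mock libraries. Here too, DEX library 3 was the highest and no DEX library reached down to a mock library. ATAF2 rose by 0.95 ± 0.09 on the log2 scale (SE), with an adjusted p of 1.6e-05 in edgeR's test. ATAF2 shares 10.3% of its exon bases with AT5G08780, whose log2 fold change was 0.01 (adjusted p = 0.964 in edgeR's test), and ANAC102 shares 5.36% with SHA1 (AT5G63780), at 0.08 (adjusted p = 0.161).

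ANAC032 (chr1:29099839-29101759, plus strand), described in jasmonate and oxidative stress responses, had fewer counts than its relatives. It had normalised counts of 267, 344, 364 and 286 in DEX libraries and of 185, 168, 161 and 183 in mock libraries. The lowest DEX library, number 1, was still above all mock libraries. ANAC032 rose by 0.86 ± 0.11 on the log2 scale (SE), with an adjusted p of 7.1e-05 in edgeR's test.

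In the subgroup of ANAC019, ANAC055 and RD26, only ANAC019 was called. ANAC019 (chr1:19696923-19698482, minus strand) activates dehydration and jasmonate responses and binds the promoter of the dehydration gene ERD1. Its normalised counts were 170, 221, 148 and 198 in DEX libraries, against 68.4, 89.7, 97.8 and 128 in mock libraries. The groups did not overlap, but the gap between DEX library 3 and mock library 4 was small beside the spread within each treatment. ANAC019 rose by 0.96 ± 0.18 on the log2 scale (SE), with an adjusted p of 0.0016 in edgeR's test.

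ANAC055 (chr3:5234457-5236196, plus strand), the closest relative of ANAC019, had normalised counts of 56.7, 53.0, 39.4 and 44.9 in DEX libraries and of 47.8, 48.4, 64.0 and 41.0 in mock libraries. The groups overlapped, with no library far from the others. Its log2 fold change of -0.07 ± 0.18 (SE) had an adjusted p of 0.799 in edgeR's test, and the mean normalised count of 49.4 was under the minimum for a call.

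RD26 (chr4:13707192-13709170, minus strand), the dehydration-responsive member that also antagonises brassinosteroid signalling, had normalised counts of 188, 231, 227 and 233 in DEX libraries and of 198, 226, 276 and 206 in mock libraries. DEX library 1 was the lowest and mock library 3 the highest, with the other libraries between. Its log2 fold change of -0.05 ± 0.12 (SE) had an adjusted p of 0.806 in edgeR's test.

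Of the 3 senescence regulators, NAP and ORE1 were called suppressed and ORS1 was not called. NAP (chr1:26122080-26123514, plus strand) promotes leaf senescence and is reported to activate SAG113, a phosphatase gene, and AAO3, an ABA biosynthesis gene. Its normalised counts were 54.2, 21.2, 33.8 and 30.8 in DEX libraries, against 72.0, 86.2, 85.1 and 83.2 in mock libraries. These values rest on 22 to 43 reads per DEX library and 69 to 121 per mock library, and DEX library 1 stood nearest to the mock range. NAP fell with a log2 fold change of -1.24 ± 0.22 (SE) and an adjusted p of 0.00096 in edgeR's test, and ranked 38 of the 386 suppressed genes by size of change. Its mean normalised count was 58.3, close to the minimum of 50.

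ORE1 (chr5:15858398-15859911, minus strand) drives age-dependent cell death in leaves downstream of EIN2 and EIN3 of the ethylene pathway and is held low in young leaves by miR164. Its normalised counts were 154, 109, 140 and 140 in DEX libraries, against 247, 222, 254 and 248 in mock libraries. The highest DEX library stayed well below the lowest mock library. ORE1 fell, at a log2 fold change of -0.85 ± 0.11 (SE) and an adjusted p of 7.8e-05 in edgeR's test.

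ORS1 (chr3:11033665-11035308, plus strand), a close relative of ORE1 that promotes senescence in response to hydrogen peroxide, had normalised counts of 50.4, 29.9, 45.0 and 42.3 in DEX libraries and of 59.9, 54.3, 59.1 and 54.2 in mock libraries. All DEX libraries lay below all mock libraries, with DEX library 1 close to the lowest of them. The log2 fold change of -0.46 ± 0.17 (SE) had an adjusted p of 0.058 in edgeR's test and was not called, and the mean normalised count of 49.4 was also under the minimum.

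**Figure D2:**
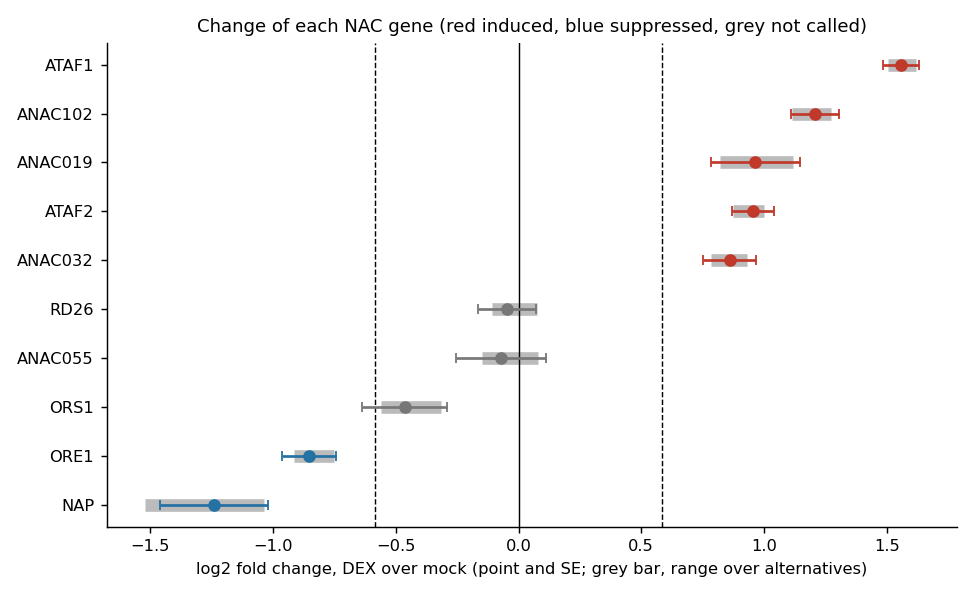
Log2 fold change of each NAC gene, DEX over mock, from edgeR with its SE, and as grey bars the range over the alternative fits, with dashed lines at the 1.5-fold threshold. ATAF1 is highest at 1.56 and NAP lowest at -1.24, and RD26 and ANAC055 are the genes whose ranges cross 0.

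A stricter test, in which the whole change has to exceed 1.5-fold (glmTreat of edgeR), called 3 members induced and 0 suppressed, beside 2.49% and 0.338% of all genes tested. The 3 were ATAF1 (adjusted p = 2.0e-06), ANAC102 (adjusted p = 0.00042) and ATAF2 (adjusted p = 0.0051). NAP had an adjusted p of 0.036, ANAC032 of 0.074, ORE1 of 0.086 and ANAC019 of 0.156 in that test. At an unadjusted p under 0.05 in the usual edgeR test, 5 members were higher and 3 lower, where 20.9% of all genes were higher and 20.9% lower. DESeq2 called 5 members induced and 2 suppressed.

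The 4 stomatal lineage markers tested were suppressed together with NAP and ORE1, and no leaf blade marker was called. Of 12 leaf, stomatal and shoot meristem markers, 9 were tested, 4 were suppressed and 0 induced, with 1 higher at an unadjusted p under 0.05 and DESeq2 also calling 0 induced. The suppressed ones were the stomatal lineage genes TMM (log2 fold change -1.68), SPCH (-1.41), EPF2 (-1.07) and FAMA (-0.84). The 6 stomatal lineage markers summed to 8.66 to 12.8 CPM in DEX and 20.3 to 30.6 CPM in mock. The leaf blade markers RBCS1A, CAB1 and CA1 summed to 3149 to 4100 CPM in DEX and 4250 to 5834 CPM in mock, over library totals without TMM factors. With TMM factors, CAB1, the largest part of this sum, had 195351 normalised counts in DEX library 1 and 190617 in mock library 4. The small gap between the summed CPM of the treatments therefore depends on the scaling. RBCS1A had a log2 fold change of -0.45 (adjusted p = 0.0036 in edgeR's test), whereas CAB1 at -0.40 (adjusted p = 0.028) and CA1 at -1.68 (adjusted p = 0.17) overlapped between the treatments. STM, a shoot meristem gene, was at 0.53 (adjusted p = 2.1e-06 in edgeR's test, under the fold threshold), and none of the 12 markers was at 0 in all libraries. The part of leaf or stomatal cells in the lower counts of NAP, ORE1 and ORS1 was not tested.

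Per length, 3 genes of the ATAF subgroup were the main NAC transcripts among the members. Levels were set side by side as RPKM, CPM with TMM scaling, divided by the exon length in kilobases. In mock, the order of mean levels was ATAF2 at 15.6, ATAF1 at 14.5, ANAC102 at 10.4, ORE1 at 3.05, RD26 at 1.97, ANAC032 at 1.66, ANAC019 at 1.16, NAP at 1.08, ORS1 at 0.655 and ANAC055 at 0.538 RPKM. Of the neighbours in that order, ATAF2 and ATAF1 overlapped between libraries, as did RD26 and ANAC032, ANAC032 and ANAC019, ANAC019 and NAP, and ORS1 and ANAC055. In DEX, ATAF1 came first at 42.5 RPKM, followed by ATAF2 at 30.2, ANAC102 at 24.0, ANAC032 at 3.01, ANAC019 at 2.23, RD26 at 1.91, ORE1 at 1.70, ANAC055 at 0.519, ORS1 at 0.483 and NAP at 0.461 RPKM. Here ATAF1 was above ATAF2 in every library, ATAF2 and ANAC102 overlapped, and each gene from ANAC032 down to ORE1, and from ANAC055 down to NAP, overlapped with the next. ORE1, the highest of the 3 senescence regulators, had 1.70 RPKM in DEX and stood below ANAC032, ANAC019 and RD26 there, against 3.05 RPKM in mock, where it stood above all 3. These levels use the full exon length, although ATAF1, ATAF2 and ANAC102 share bases with other genes in the RefSeq annotation. Reads on those bases went uncounted only if the authors' annotation, whose version is not given, held the same overlaps. Per length of unshared exon bases, an alternative chosen after seeing the data, ATAF1 was at 54.8 RPKM in DEX and 18.7 RPKM in mock, and ATAF2 at 33.7 RPKM in DEX and 17.4 RPKM in mock. This puts ATAF1 above ATAF2 by the mock mean, with overlap between libraries as before, and separates ATAF2 from ANAC102, at 25.4 RPKM, in DEX. The order of ATAF1 and ATAF2 in mock therefore depends on the length used.

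**Figure D3:**
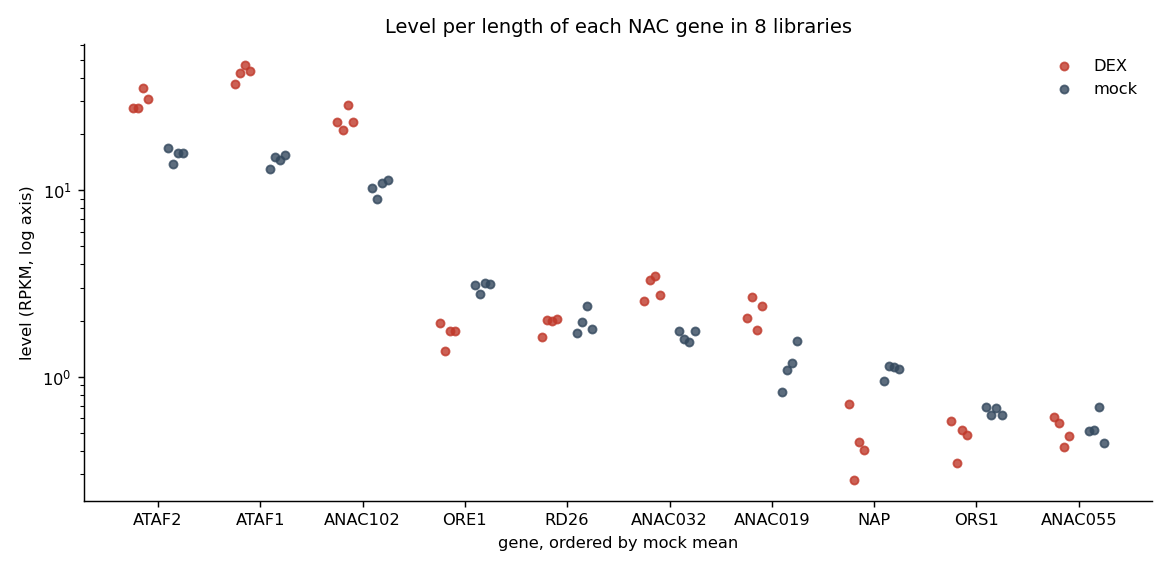
Level per length of each NAC gene in the 8 libraries, on a log axis in RPKM, DEX in red at left and mock in dark grey at right of each gene, genes ordered by the mock mean. ATAF2, ATAF1 and ANAC102 lie between 9.01 and 47.0 RPKM, and the others lie between 0.279 and 3.47 RPKM.

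The sum over the 10 members was 98.2 to 121 RPKM in DEX and 47.5 to 52.9 RPKM in mock libraries. The ATAF subgroup made up 92.3 to 94.3% of this sum in DEX libraries and 82.2 to 84.3% in mock libraries.

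To compare close relatives without any scaling between libraries, the log2 ratio of their counts was taken within each library for 6 pairs, and the difference DEX minus mock was tested by an exact two-sided permutation test over all 70 ways to assign 4 of the 8 libraries to DEX, whose smallest possible p is 0.0286. ANAC019 and ANAC055, with proteins 76.1% identical over 309 aligned residues, are the closest pair of their subgroup. Their log2 ratio was 1.57, 2.05, 1.89 and 2.12 in DEX libraries and 0.52, 0.88, 0.61 and 1.63 in mock libraries. Mock library 4 lay within the DEX range, the others below it. The difference of 1.0 ± 0.28 (SE) had an exact p of 0.0571, or 0.0686 after Benjamini-Hochberg adjustment over the 6 pairs, and was not past 0.05.

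ANAC019 and RD26 have proteins that are 68.3% identical. Their log2 ratio was -0.14, -0.07, -0.62 and -0.24 in DEX libraries and -1.53, -1.32, -1.49 and -0.69 in mock libraries. ANAC019 gained on RD26 in DEX without overlap, by 0.99 ± 0.23 (SE) with an exact p of 0.0286, adjusted 0.0429. ANAC055 and RD26 did not separate, with mean log2 ratios of -2.18 ± 0.35 in DEX and -2.17 ± 0.12 in mock (SD, n = 4 each), a difference of -0.01 ± 0.18 (SE) and an exact p of 0.971.

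Within the ATAF subgroup, the pairs also changed unequally. ANAC032 and ATAF1, 72.2% identical, had a mean log2 ratio of -3.76 ± 0.13 in DEX and -3.05 ± 0.17 in mock (SD, n = 4 each), without overlap. The difference was -0.71 ± 0.11 (SE), with an exact p of 0.0286, adjusted 0.0429, as ATAF1 rose more than ANAC032. ANAC102 and ATAF2, the most alike pair with 86.6% identity, had a mean log2 ratio of -0.28 ± 0.07 in DEX and -0.54 ± 0.10 in mock, again without overlap. ANAC102 rose more than ATAF2, by 0.25 ± 0.06 (SE), with an exact p of 0.0286, adjusted 0.0429.

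ORE1 and ORS1, 75.9% identical, had log2 ratios of 1.60, 1.85, 1.62 and 1.71 in DEX libraries and of 2.04, 2.02, 2.10 and 2.18 in mock libraries. All DEX ratios lay below all mock ratios. The difference was -0.39 ± 0.07 (SE), with an exact p of 0.0286, adjusted 0.0429, so the ratio of ORE1 to ORS1 was lower in DEX. ORS1 had only 31 to 40 reads per DEX library and 45 to 84 per mock library. The SE comes from the spread between the libraries alone, and how it compares with the counting error at such counts was not tested.

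**Figure D4:**
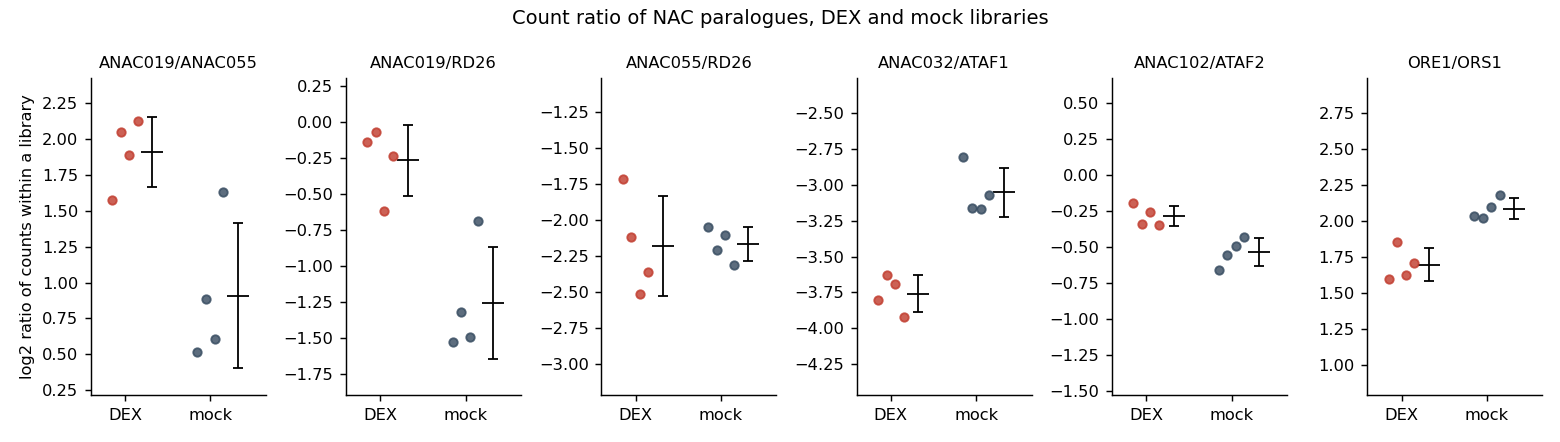
Log2 ratio of the raw counts of 6 pairs of related NAC genes within each library, 1 point per library with mean and SD (n = 4) beside them, DEX at left and mock at right, all panels spanning the same range of log2 units. ANAC019/RD26 and ANAC102/ATAF2 are higher in every DEX library, ANAC032/ATAF1 and ORE1/ORS1 are lower in every DEX library, and ANAC019/ANAC055 and ANAC055/RD26 overlap.

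Promoters were searched for short elements because ABA- and jasmonate-related bZIP and MYC factors bind sequences with an ACGTG core. The window ran from 250 bases before the annotated gene start to 50 bases from the start on, both strands, in TAIR10.1. ACGTG was found in 4 of 10 members, namely ANAC019, ANAC032, RD26 and NAP, and in 26.7% of 27443 promoters of protein-coding genes. The palindromic G-box CACGTG, which contains ACGTG on both strands, was found in ANAC019, ANAC032 and NAP, and in 7.68% of all promoters. The W-box core TTGAC, bound by WRKY factors, was in 7 members and in 50.5% of all promoters. CATGTG, bound by ANAC019, ANAC055 and RD26 in the ERD1 promoter, was in 0 members and in 12.9% of all promoters, and the auxin response element TGTCTC was in 0 members and in 14.2%. The 3 promoters with a G-box are given 5′ to 3′ with ACGTG and CACGTG, on either strand, in capitals. They lie at chr1:19698433-19698732 on the minus strand for ANAC019, chr1:29099589-29099888 on the plus strand for ANAC032 and chr1:26121830-26122129 on the plus strand for NAP.
ANAC019: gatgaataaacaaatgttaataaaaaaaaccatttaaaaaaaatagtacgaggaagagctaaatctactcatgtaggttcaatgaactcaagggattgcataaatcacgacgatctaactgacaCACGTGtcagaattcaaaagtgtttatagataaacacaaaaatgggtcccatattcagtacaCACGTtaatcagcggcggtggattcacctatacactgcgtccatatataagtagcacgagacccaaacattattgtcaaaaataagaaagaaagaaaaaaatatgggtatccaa
ANAC032: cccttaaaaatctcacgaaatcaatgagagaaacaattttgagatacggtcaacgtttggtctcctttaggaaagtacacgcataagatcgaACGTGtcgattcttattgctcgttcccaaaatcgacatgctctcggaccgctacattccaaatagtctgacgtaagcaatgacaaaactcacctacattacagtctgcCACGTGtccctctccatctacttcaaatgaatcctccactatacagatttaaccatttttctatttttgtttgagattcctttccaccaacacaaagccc
NAP: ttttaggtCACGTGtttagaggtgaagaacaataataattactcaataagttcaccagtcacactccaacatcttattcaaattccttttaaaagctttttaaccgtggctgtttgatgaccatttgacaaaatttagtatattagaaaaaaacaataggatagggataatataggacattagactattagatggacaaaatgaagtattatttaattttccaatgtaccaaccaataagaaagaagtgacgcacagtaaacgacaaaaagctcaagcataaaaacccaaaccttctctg

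The G-box started at position -126 in ANAC019, -50 in ANAC032 and -242 in NAP, counted from the gene start. The log2 fold changes of these 3 genes were 0.96 for ANAC019, 0.86 for ANAC032 and -1.24 for NAP. RD26, with ACGTG at position -100 but no G-box, was at -0.05. ATAF1, with the largest rise of the members, had neither ACGTG nor CACGTG in this window. Whether these elements play a part in the changes was not tested. A match is a description of the letters and does not show binding.

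For each member, the tested gene with the most similar profile was found by the root mean square (RMS) difference of log2 CPM values, centred on each gene's mean, over the 8 libraries. ATAF2 was nearest to CEJ1, an ERF-type DREB repressor gene (RMS 0.044), with mean normalised counts of 596 in DEX and 316 in mock. ATAF1 was nearest to AT1G59910 (RMS 0.059, 5815 in DEX and 2054 in mock), ANAC032 to AT2G07739 (RMS 0.068, 101 in DEX and 52.0 in mock) and ANAC102 to SUE4 (RMS 0.083, 1271 in DEX and 507 in mock). ANAC019 was nearest to PUB18, a ubiquitin ligase gene described in ABA responses, with an RMS of 0.155 and mean normalised counts of 716 in DEX and 373 in mock. Among the suppressed members, ORE1 was nearest to NdhO, a chloroplast NDH complex subunit gene (RMS 0.082, 192 in DEX and 361 in mock), and NAP to RPB5D (RMS 0.183, 61.9 in DEX and 114 in mock). ORE1 was also among the 50 genes nearest to NAP. ORS1 was nearest to the bZIP gene bZIP1 (RMS 0.081, 368 in DEX and 478 in mock), RD26 to TOPP6 (RMS 0.061, 221 in DEX and 229 in mock) and ANAC055 to AT5G05775 (RMS 0.094, 65.2 in DEX and 66.9 in mock). These are descriptions over libraries that share their treatment, and low-count genes such as NAP carry more counting noise.

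Regulators described upstream of the members were mostly not called. Of 22 such genes, 17 were tested, 1 was induced (5.88%) and 0 suppressed, beside 4.64% and 1.81% of all genes tested. The median log2 fold change was 0.02 beside -0.01 over all genes tested. At an unadjusted p under 0.05, edgeR had 2 higher and 2 lower, where 20.9% of all genes were higher and 20.9% lower. DESeq2 called 1 induced and 0 suppressed. The induced one was RAV1, a factor that promotes leaf senescence, with 10945 ± 356 normalised counts in DEX and 7019 ± 745 in mock (SD, n = 4 each), a log2 fold change of 0.64 ± 0.07 (SE) and an adjusted p of 1.5e-05 in edgeR's test. EIN2 and EIN3, ethylene pathway activators of ORE1 and NAP, had log2 fold changes of 0.03 and -0.02. ABI5 and EEL, ABA-related bZIP activators of ORE1, were at -0.19 and 0.11. PIF4, a light-signalling activator of ORE1, was at -0.34 ± 0.08 (SE, adjusted p = 0.0068), its relative PIF5 at 0.24 ± 0.06 (SE, adjusted p = 0.012) and MYC3, a jasmonate factor, at -0.20 ± 0.04 (SE, adjusted p = 0.0022) in edgeR's test, all under the 1.5-fold threshold. MYC2, which activates ANAC019, ANAC055 and RD26, and CPK1, a kinase that phosphorylates ORE1, had 0 counts in every library, and a count of 0 in a table that leaves out reads on overlapping genes gives no level.

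Genes reported as NAC targets were called in both directions. The list holds targets of the members and DREB2A, a target of JUB1, which is not a member. Of 24 such genes, 22 were tested, 3 were induced (13.6%) and 2 suppressed (9.09%), beside 4.64% and 1.81% of all genes tested. At an unadjusted p under 0.05 in edgeR, 7 were higher and 8 lower, where 20.9% of all genes were higher and 20.9% lower. The median log2 fold change was -0.11 beside -0.01 over all genes tested. NCED3, the rate-limiting ABA biosynthesis gene that ATAF1 activates, was induced, with normalised counts of 651, 692, 846 and 731 in DEX libraries against 120, 124, 161 and 151 in mock libraries. All DEX libraries were several-fold above all mock libraries, and NCED3 rose by 2.39 ± 0.11 (SE) on the log2 scale with an adjusted p of 3.7e-08 in edgeR's test. GLK1, a chloroplast development gene repressed by ATAF1, had 407 ± 28.1 normalised counts in DEX and 578 ± 40.1 in mock, a log2 fold change of -0.51 ± 0.07 (SE), which had an adjusted p of 0.00017 but was under the fold threshold. TRE1, a trehalase gene reported as an ATAF1 target, was at -0.09 (adjusted p = 0.73).

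DREB2A, a dehydration-responsive factor gene under control of the NAC factor JUB1, was induced with 3883 ± 314 normalised counts in DEX and 1223 ± 169 in mock (log2 fold change 1.67 ± 0.09, SE, with an adjusted p of 1.0e-06 in edgeR's test), whereas JUB1 was at 0.06 (adjusted p = 0.87). The ERD1 gene, target of ANAC019, ANAC055 and RD26, was at 0.03 (adjusted p = 0.74). The jasmonate-responsive genes VSP1 and LOX2, which ANAC019 and ANAC055 are reported to activate, spread widely between libraries. VSP1 had 5716 ± 1472 normalised counts in DEX and 9553 ± 3079 in mock, and LOX2 had 4288 ± 1282 in DEX and 7577 ± 4075 in mock, with overlap and adjusted p-values of 0.093 and 0.27 in edgeR's test. ICS1, the salicylic acid biosynthesis gene that the same factors repress, was at 0.18 (adjusted p = 0.069). BAS1, reported to be repressed by ATAF2, was higher in every DEX library, the same direction as ATAF2. It had 799 ± 44.7 normalised counts in DEX and 534 ± 41.3 in mock. Its log2 fold change of 0.58 was just under the threshold (adjusted p = 3.3e-05 in edgeR's test). SOB7, also reported to be repressed by ATAF2, was at -0.14 (adjusted p = 0.40 in edgeR's test). MYBL2, a repressor of flavonoid genes linked to ANAC032, was suppressed at -1.02 ± 0.18 (SE, adjusted p = 0.00082 in edgeR's test).

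Among genes downstream of the senescence regulators, SAG113, the NAP target, had normalised counts of 56.7, 36.6, 49.6 and 57.7 in DEX libraries against 111, 138, 80.9 and 121 in mock libraries. It was lower in every DEX library, at -1.16 ± 0.19 (SE) on the log2 scale and an adjusted p of 0.00062 in edgeR's test, the same direction as NAP. AAO3, the other NAP target, was at -0.12 (adjusted p = 0.069). The nuclease genes BFN1 and RNS3, reported targets of ORE1, were at -0.05 and -0.17 and were not called. ACS2, an ethylene biosynthesis gene reported as an ORE1 target, was induced at 0.64 ± 0.14 (SE, adjusted p = 0.0033 in edgeR's test) with 152 ± 27.2 normalised counts in DEX and 96.8 ± 7.47 in mock, opposite in direction to ORE1. The ACS2 call was lost without DEX replicate 3, at a log2 fold change of 0.51, which is under the threshold. It was also lost without mock replicate 3 at 0.61 and without mock replicate 4 at 0.62. There the fold passed, but the adjusted p was 0.0108 and 0.0101 in edgeR's test.

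Genes of senescence and chlorophyll breakdown were called in both directions. Of 26 genes, 25 were tested, 2 were induced and 2 suppressed, beside 4.64% and 1.81% of all genes tested. With an adjusted p under 0.01 alone, 6 were higher and 4 lower, where 10.9% of all genes were higher and 8.69% lower. The induced ones were SAG21, a late-embryogenesis-type gene, at 0.64 ± 0.09, and DIN2, a dark-inducible glucosidase gene, at 0.75 ± 0.16 (SE). The suppressed ones were SEN1 at -0.98 ± 0.21 and DIN10, a raffinose synthase-like gene, at -0.80 ± 0.09 (SE). Without DEX replicate 3, SAG21 was at 0.58 and no longer called. DIN2 was lost in 5 of 8 fits with 1 library left out, with log2 fold changes between 0.64 and 0.85 over all 8. In those 5, its adjusted p was 0.0104 to 0.0168 in edgeR's test. The SEN1 call was lost without DEX replicate 2 and without mock replicate 3, at -0.93 in each. There its adjusted p was 0.018 and 0.014. None of the chlorophyll breakdown genes was called, but their values differed. RCCR was higher in every DEX library at 0.52 (adjusted p = 1.6e-05 in edgeR's test) and NOL lower in every DEX library at -0.36 (adjusted p = 0.0013), both under the fold threshold, while SGR1, SGR2, NYC1, PAO and PPH were at -0.06, -0.24, -0.04, -0.10 and -0.09. SAG12, the classical late senescence marker, had 9 reads over all libraries and was not tested.

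**Figure D5:**
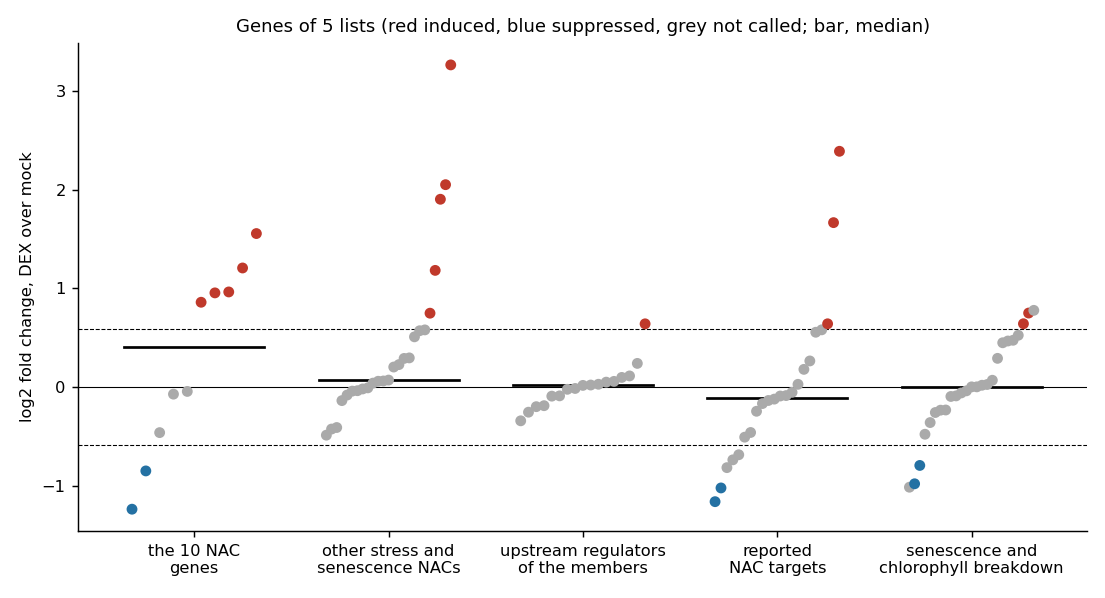
Log2 fold change, DEX over mock, of the tested genes in 5 lists, 1 point per gene sorted within its list, with the list median as a bar and dashed lines at the 1.5-fold threshold. The 10 NAC genes are split, 5 at 0.86 or more and 5 at -0.05 or less, so that their median of 0.41 lies in a gap where no member is.

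Other stress and senescence NAC genes were called induced or were not called. Of 26 listed, 25 were tested, 5 were induced and 0 suppressed, beside 4.64% and 1.81% of all genes tested. In this list, 11 were higher and 3 lower at an unadjusted p under 0.05 in edgeR, where 20.9% of all genes were higher and 20.9% lower. DESeq2 called 6 induced and 0 suppressed. With an adjusted p under 0.01 alone, 10 were higher and 2 lower, where 10.9% of all genes were higher and 8.69% lower. The 2 lower genes, ANAC047 and ANAC041, were lower in every DEX library. The median log2 fold change of the list was 0.07 beside -0.01 over all genes tested. ANAC061 had the steepest rise, with 165 ± 47.6 normalised counts in DEX and 16.8 ± 3.99 in mock, or 3.27 ± 0.24 (SE) on the log2 scale, with an adjusted p of 8.2e-07 in edgeR's test. ANAC062, a membrane-bound NAC, had the highest counts of the 5 induced genes, with 14788 ± 954 in DEX and 3569 ± 522 in mock and a log2 fold change of 2.05 ± 0.10 (SE). ANAC090, described as a negative regulator of senescence, rose by 1.90 ± 0.25 (SE) on the log2 scale, with DEX library 3 the highest at 539 normalised counts and the other DEX libraries at 275 to 291, against 75.6 to 106 in mock libraries. ANAC103, a gene of the endoplasmic reticulum stress response, was induced at 0.75 ± 0.07 (SE).

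ANAC019 and ANAC055 each lie beside another NAC gene on the chromosome, NARS2 and NARS1, which are known from seed coat development. NARS1, the neighbour of ANAC055, was induced with normalised counts of 619, 574, 681 and 740 in DEX libraries and 335, 262, 275 and 270 in mock libraries, or 1.18 ± 0.10 (SE) on the log2 scale with an adjusted p of 2.0e-06 in edgeR's test, while ANAC055 was not called. NARS2, the neighbour of ANAC019, had 84.0 ± 9.89 in DEX and 81.6 ± 5.22 in mock, at 0.04 ± 0.13 (SE, adjusted p = 0.85), while ANAC019 was induced. In each of these gene pairs, 1 gene was thus called and its neighbour was not, and the difference between neighbours was not tested.

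The other NAC genes with a miR164 match as good as that of ORE1 or better had no call. NAC1, CUC1, CUC2, ANAC080 and ANAC100, which act in lateral root and organ boundary formation or belong to the same subgroup, had match scores of 1.5 to 2.0. Their log2 fold changes were -0.14 for NAC1, -0.04 for CUC1, -0.08 for CUC2, -0.41 for ANAC080 and -0.01 for ANAC100. ANAC080 had 222 ± 33.5 normalised counts in DEX and 291 ± 48.2 in mock (adjusted p = 0.034 in edgeR's test), and its treatments overlapped.

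Over the rest of the NAC family, 90 genes by RefSeq name, 69 were tested. Of these, 11 were induced and 0 suppressed, beside 4.64% and 1.81% of all genes tested. The 11 include the 5 induced genes from the list of other stress and senescence NAC genes. The call of NAC004 was lost in 10 alternative fits and that of VND1 in 8. At an unadjusted p under 0.05, 10 of the 69 were lower, beside 20.9% of all genes, and DESeq2 also called 0 suppressed. Next to ANAC061, ANAC062 and ANAC090, the largest changes were those of NTM1, a membrane-bound NAC that restrains cell division, with 687 ± 92.7 normalised counts in DEX and 207 ± 16.0 in mock (log2 fold change 1.73 ± 0.10, SE), and TIP, a NAC that binds a viral coat protein, with 14293 ± 955 in DEX and 5807 ± 283 in mock (1.3 ± 0.05, SE). NAP and ORE1 were the only 2 of the 79 NAC genes tested that were called suppressed, a count near the share of 1.81% over all genes tested. Library totals or upper quartile factors in place of TMM added 1 other NAC gene. Leaving out DEX replicate 1, DEX replicate 3 or mock replicate 3 also added 1. NAC066 was lower in every DEX library at -0.97 (adjusted p = 0.0012 in edgeR's test), but its mean normalised count of 34.4 was under the minimum for a call. LOV1 at -0.55, ANAC047 at -0.49, NAC101 at -0.45 and ANAC041 at -0.43 were also lower in every DEX library, under the fold threshold. With an adjusted p under 0.01 alone in edgeR's test, 5 of the 69 were lower and 18 higher, beside 8.69% and 10.9% of all genes tested.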

How the data were processed

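Per the paper's methods and the labels, the authors mapped paired reads of polyA-selected RNA with STAR 2.7.8a to TAIR10, discarded multi-mapping reads and counted the rest per gene by summarizeOverlaps (union mode, strand ignored), so that reads on more than 1 gene are dropped. The annotation version is not given in the sources used here. The authors deposited raw counts, used here, and a table normalised with DESeq2 1.34.0, not used here. Groups and replicate numbers came from the sample labels.

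DEX was compared with mock by edgeR 4.0.16 in R 4.3.3 (quasi-likelihood test, TMM, filterByExpr, robust, no replicate block), with Benjamini-Hochberg adjustment over 21289 genes. SE is the absolute log2 fold change over the square root of F. Calls used the thresholds of the study's methods, an adjusted p under 0.01, a change over 1.5-fold and a mean normalised count over 50. Paralogue ratios had 0.5 added to each count. Exon lengths, names, positions and sequences came from RefSeq for TAIR10.1, and proteins were aligned with Biopython 1.88. Within a treatment, pairs of libraries had a chi-square per gene of 6.25 to 25.2, so none was a repeat of another, and edgeR's common biological coefficient of variation came to 0.0662. ANAC055, NAP and ORS1 had at most 121 reads per library and thus the largest relative counting error of the members. Scripts were tested on simulated data.

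The genes named were the members, their chromosomal NAC neighbours, the called genes with the largest changes in each list, the nearest profile of each member, and regulators or targets described beside a member. The members and lists were chosen with earlier results of these data known. Alternatives were DESeq2 1.42.0, other size factors, filters, thresholds and pseudocounts, a replicate block, and leaving out each library. Levels per unshared exon length were added after seeing the data.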

Additional observations from a re-analysis of the deposited data

Results flagged for a closer look

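A search of the 10 members and 6 paralogue ratios in each treatment, 32 groups of 4 libraries in all, found 1 library that stood apart from the others. It was RD26 in DEX, where library 1 had 188 normalised counts and the other 3 had 227 to 233, so that the gap to the nearest made up 0.869 of the whole range. Such a gap is found by chance in about 1 in 20 groups. Without DEX replicate 1, the log2 fold change of RD26 was 0.02, and it was not called with or without that library.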

How the results depend on the processing

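The calls of ATAF1, ATAF2, ANAC032, ANAC102, ANAC019, NAP and ORE1 held in all 15 alternatives to the test, scaling, filter, pairing and libraries, and RD26, ANAC055 and ORS1 stayed without a call in theirs. A minimum of 50 counts in 4 libraries left out ANAC055 and ORS1. The test against the fold threshold, set apart from these, called 3 members induced and 0 suppressed, and 531 and 72 of all genes. In it the lists had 0 induced upstream regulators, 0 suppressed reported targets, 0 induced and 0 suppressed senescence genes and 6 induced other NAC family genes. With an adjusted p under 0.01 alone, 2320 genes were higher and 1850 lower. The same rule gave 10 higher and 2 lower other stress NAC genes, 2 lower upstream regulators, 5 higher reported targets, 6 higher and 4 lower senescence genes, and 18 higher and 5 lower other NAC family genes. Library totals only and upper quartile factors each called 1 other NAC family gene suppressed. With each library left out in turn, the log2 fold change of ANAC055 ranged between -0.15 and 0.079 and that of RD26 between -0.11 and 0.074. Over the same fits, reported targets had 2 to 5 induced, senescence genes 1 to 2 induced and 1 to 3 suppressed, and the other NAC family 0 to 1 suppressed. The causes were not tested. The labels do not say whether libraries with equal replicate numbers were treated or harvested together. Correlations of their deviations were -0.0098 to 0.072 for equal numbers and -0.13 to 0.16 for unequal numbers, which cannot settle the pairing. A replicate block called 983 genes induced and 387 suppressed and changed no member's call. NAP rests on 22 to 43 reads per DEX library, and how much of its spread is counting error was not tested.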
